A study of Mus musculus with 73 samples.

Results

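Whole adrenal glands of control XX mice were compared with those of control XY mice at 4 weeks of age by RNA sequencing. The comparison used 4 libraries per sex, 8 of the 73 libraries of the series, chosen by the sex, genotype and age in their labels and by no measured value. The control mice are labelled WT and come from the breeding of Znrf3 fl/fl with SF1-Cre high mice on a C57Bl/6 background, which in experiments without flow cytometry also carried the mTmG reporter, and controls were littermates. Znrf3, which encodes a membrane ubiquitin ligase that restrains Wnt signalling, is deleted in the steroidogenic cells of the Znrf3 cKO mice of the same series. The alleles that each control mouse carried are not given in the sources used here, and neither is the number of mice behind a library. The p-values therefore speak only of variation among these libraries, whether technical or between animals. Only the 50502 autosomal genes of the 54838 in the table were tested, since sex chromosomes differ in copy number.

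The adrenal cortex makes steroid hormones in concentric zones around a medulla of chromaffin cells, which make catecholamines. In mice the innermost cortex also holds the X-zone, a transient layer derived from the fetal cortex that disappears from males at puberty and from females later. The enzyme encoded by Akr1c18 and the lipid kinase encoded by Pik3c2g mark this layer.

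Promoters are shown for 4 genes of steroid or xenobiotic metabolism with large differences between the sexes. Akr1c18 encodes a dehydrogenase that inactivates progesterone, Akr1d1 the steroid 5-beta-reductase, Cyp2f2 a cytochrome P450 of xenobiotic metabolism, and Srd5a2 a steroid 5-alpha-reductase that makes dihydrotestosterone. Each runs 5′ to 3′ on the strand of the gene, from 250 bases before the start of transcription to 50 bases after it, and comes from RefSeq on GRCm38.p6. Capitals mark AAGGTCA, a motif of NR5A1 (steroidogenic factor 1), searched on both strands.
Akr1c18, chr13:4150597-4150896 (- strand): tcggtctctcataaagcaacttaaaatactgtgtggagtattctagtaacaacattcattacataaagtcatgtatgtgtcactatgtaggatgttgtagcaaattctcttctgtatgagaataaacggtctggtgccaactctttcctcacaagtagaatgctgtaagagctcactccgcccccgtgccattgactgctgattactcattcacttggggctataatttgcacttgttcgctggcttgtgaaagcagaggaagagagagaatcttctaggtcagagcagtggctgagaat
Akr1d1, chr6:37529923-37530222 (+ strand): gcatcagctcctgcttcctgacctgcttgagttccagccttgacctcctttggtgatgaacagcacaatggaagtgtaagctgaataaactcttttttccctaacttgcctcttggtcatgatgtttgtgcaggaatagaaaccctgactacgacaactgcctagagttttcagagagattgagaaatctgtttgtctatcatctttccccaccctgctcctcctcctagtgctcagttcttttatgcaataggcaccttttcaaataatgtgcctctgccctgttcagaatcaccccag
Cyp2f2, chr7:27119705-27120004 (+ strand): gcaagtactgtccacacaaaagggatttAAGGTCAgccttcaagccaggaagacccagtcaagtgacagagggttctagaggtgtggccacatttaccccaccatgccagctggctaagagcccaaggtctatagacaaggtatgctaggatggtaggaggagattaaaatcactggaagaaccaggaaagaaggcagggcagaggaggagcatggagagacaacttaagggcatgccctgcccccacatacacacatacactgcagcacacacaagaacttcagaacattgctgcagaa
Srd5a2, chr17:74047811-74048110 (- strand): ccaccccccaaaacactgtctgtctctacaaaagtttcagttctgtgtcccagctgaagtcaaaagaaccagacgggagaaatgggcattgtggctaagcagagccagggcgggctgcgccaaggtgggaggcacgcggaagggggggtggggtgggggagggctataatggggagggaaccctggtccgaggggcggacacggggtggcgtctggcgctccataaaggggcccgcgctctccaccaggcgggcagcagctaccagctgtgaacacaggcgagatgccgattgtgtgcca
AAGGTCA was in 1550 of 32851 RefSeq promoters of this length, or 4.72%. Of the 4 it was in that of Cyp2f2, at position -222 from the start site on the strand of the gene. AGAACA, a motif of glucocorticoid and related steroid receptors that does not overlap AAGGTCA, was searched in the same way and was in 19% of all promoters and, of the 4, in 1 place in that of Cyp2f2. A match describes the letters and is not a binding site.

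Depth, recovered from the steps of low values, was 28.6 to 39.98 M reads in XY and 36.0 to 57.2 M reads in XX (M, mega). Levels are in RPKM (read counts scaled for the length of a gene and the depth of its library), rescaled over the 8 libraries. The sex labels held in every library: deposited values of Xist ran from 0.0158 to 0.0441 RPKM in XY and from 75.95 to 84.0 in XX, and those of the Y-linked Ddx3y from 16.4 to 31.5 in XY and up to 0.0349 in XX. Znrf3 lay between 3.64 and 4.78 RPKM in XY and between 3.68 and 4.89 in XX and was not called (adjusted p = 0.8055 by limma). XX replicate 1 stood apart. It was the deepest of the 8 libraries (57.18 M reads, the next 40.73 M) and had the most genes above 0 (32977, the next 31326). Its correlation across genes with the other XX libraries was 0.949 to 0.965, against 0.984 to 0.992 among those, and the heat shock gene Hspa1a was at 144.8 RPKM there and at most 12.0 elsewhere. The library numbers of the sexes do not interleave and no source names a preparation batch, so a batch and sex cannot be told apart.

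Of 18922 autosomal genes whose mean reached 0.5 RPKM in either sex, 4363 (23.1%) were called at an adjusted p under 0.05 (limma with a trend on log2(RPKM + 1), Benjamini-Hochberg adjustment over all genes tested). Levels of 2280 genes (12.0%) were higher in XX and of 2083 (11.0%) lower. The libraries of the sexes did not overlap for 5280 genes (27.9%), of which 4096 were also called. The count was 2871 without XX replicate 4, 2934 without XX replicate 2 and 5285 without XX replicate 1, and 828 genes had a log2 difference of at least 1. All differences below are XX minus XY on the log2(RPKM + 1) scale, which understates the change of genes at low levels, and the median over all genes tested was 0.00.

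The direction moved with the base composition of the transcript. Over 8 bins of protein-coding genes, the median log2 difference was 0.31 in the bin lowest in GC and -0.15 in the highest, and 36.9% of the lowest bin was called higher in XX against 1.7% lower. The medians of the lowest and highest bin were 0.31 and -0.32 in controls at 6 weeks, 0.31 and -0.19 at 12 weeks and 0.2 and -0.08 in Znrf3 cKO adrenals at 4 weeks. XY libraries also differed from each other, with replicates 1 and 2 at -0.208 and -0.219 in the lowest bin and replicates 3 and 4 at -0.109 and -0.066. A correction of each library for GC content, added after seeing the data, left 3270 calls (17.3%), 1656 (8.75%) higher and 1614 (8.53%) lower in XX. Of the 4363 calls, 2818 were called in the same direction after it and 1 in the opposite one. Among the genes named below, those whose call it removes are marked.

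**Figure D1:**
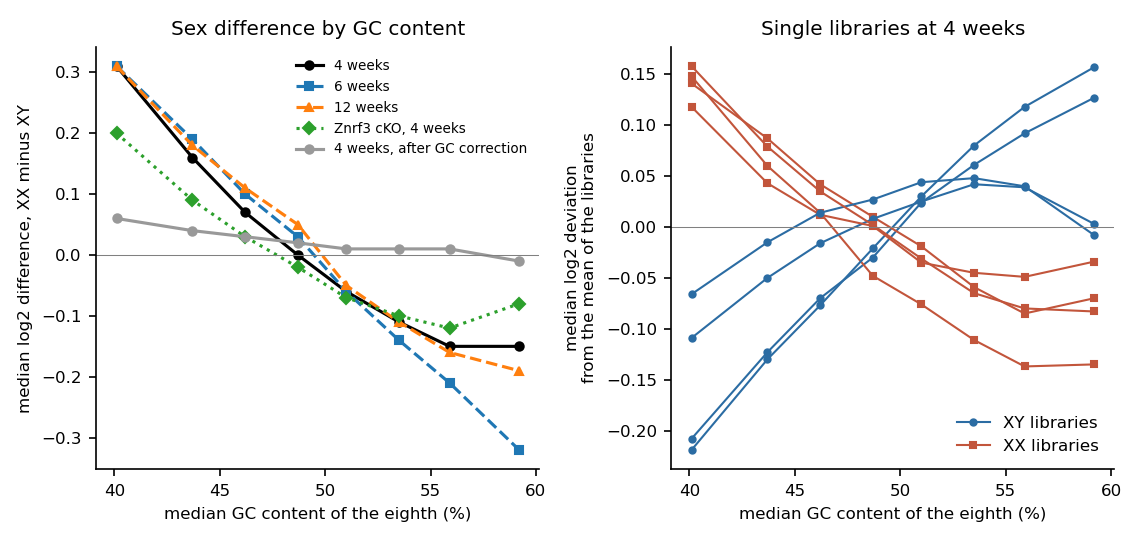
Left, median log2 difference between XX and XY adrenals (XX minus XY) against the median GC content in percent of 8 bins of protein-coding genes, for 4 comparisons and for the 4-week comparison after the GC correction. Right, median deviation of each 4-week library; in the lowest bin XX libraries lie at 0.118 to 0.158 and XY libraries at -0.219 to -0.066.

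Of 5 tested X-zone genes, 3 were called higher in XX and 0 lower, with a median log2 difference of 1.25. Over all genes tested, 12.0% were called higher and 11.0% lower. Akr1c18 measured 2.78, 22.9, 488.8 and 994.0 RPKM in XY and 1304, 4662, 3680 and 3657 in XX. The XY libraries were spread widely, and the lowest XX library, replicate 1, lay just above the highest XY library. Means were 377.1 ± 468.6 RPKM in XY and 3326 ± 1427 in XX (SD, n = 4 each), a log2 difference of 5.21 (SE 1.62, adjusted p = 0.0491). That call was lost after GC correction (adjusted p = 0.0631) and without XY replicates 1 and 2 or XX replicates 1, 2, 3 and 4 (up to 0.1215). Pik3c2g measured 0.0187, 0.0624, 0.847 and 1.87 RPKM in XY and 4.40, 33.0, 24.6 and 28.65 in XX, with no overlap (log2 difference 3.64, SE 0.60, adjusted p = 0.00329), and its call held after GC correction and without any 1 library. In both genes XY replicates 3 and 4 stood above XY replicates 1 and 2, and XX replicate 1 was the lowest XX library. In whole glands, fewer cells of a type and less RNA per cell cannot be told apart.

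Thrb, a thyroid hormone receptor gene, measured 4.28, 4.41, 3.53 and 5.33 RPKM in XY and 4.40, 14.4, 16.9 and 16.4 in XX. XX replicate 1 lay within the XY range and the other XX libraries above it (log2 difference 1.25, SE 0.36, adjusted p = 0.0390). The call was lost after GC correction (0.0673) and without any library but XX replicate 1 (up to 0.106). The other members were not called. Abcb1b, which encodes a drug efflux pump, measured 422.7, 425.4, 187.5 and 256.0 RPKM in XY and 83.8, 228.6, 218.3 and 193.3 in XX (adjusted p = 0.1415), and Cyp17a1, the 17-alpha-hydroxylase, lay between 0.266 and 1.47 RPKM in XY and between 0.153 and 0.8345 in XX (0.218). With each library left out in turn, between 1 and 2 of the 5 genes were called higher, and after GC correction 1.

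**Figure D2:**
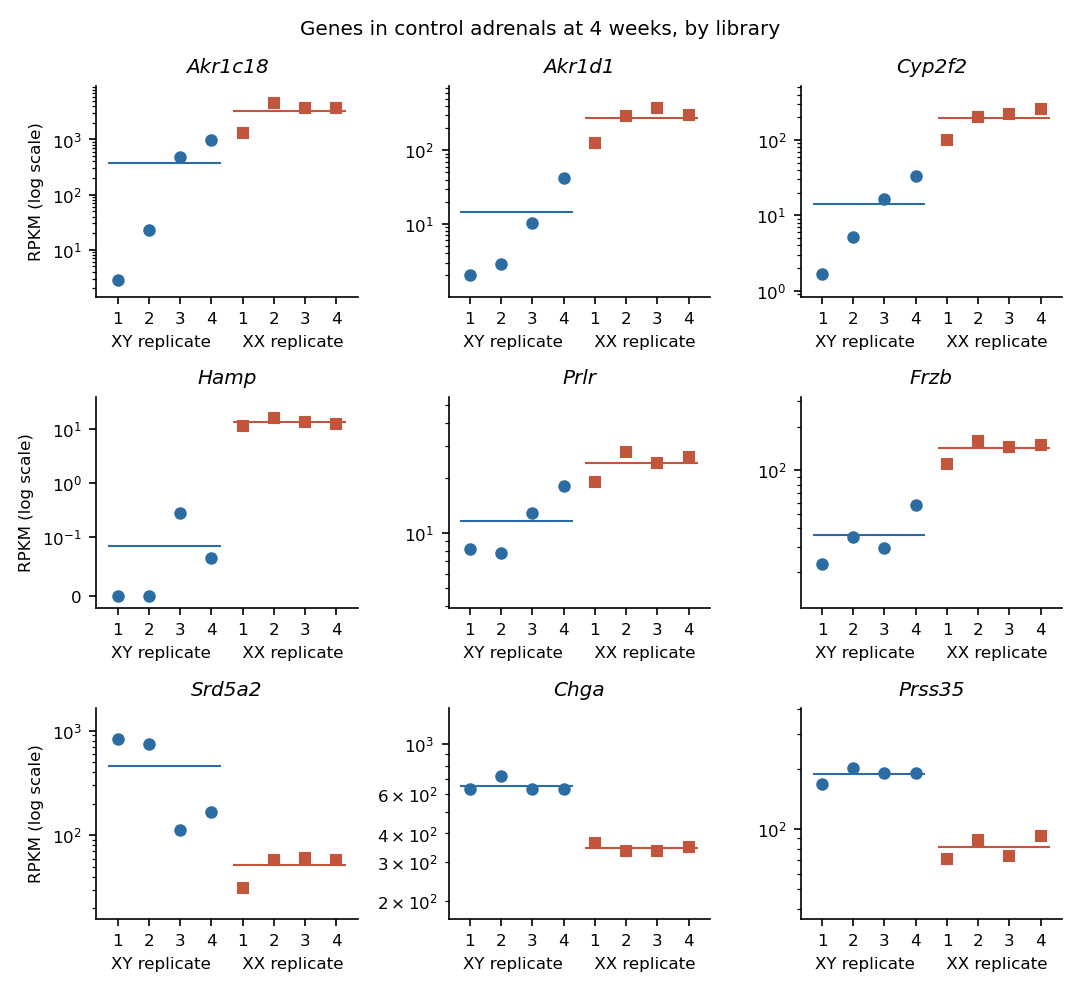
Level of 9 genes in RPKM (log axes; for Hamp linear below 0.1) in the 4 XY (blue circles) and 4 XX (red squares) control libraries at 4 weeks, with lines at the group means. For Akr1c18, Akr1d1, Cyp2f2 and Prlr the highest XY library is replicate 4, the lowest XX library is replicate 1, and the sexes do not overlap.

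Of 16 tested enzymes that reduce or conjugate steroids, 4 (Akr1c18, Akr1d1, Cyp2f2 and Ugt1a1) were higher in XX, 1 (Srd5a2) was lower and 11 were not called, where 12.0% and 11.0% of all genes tested were called higher and lower. The median log2 difference was 0.14. Akr1d1 measured 2.04, 2.865, 10.3 and 42.4 RPKM in XY and 125.6, 293.8, 372.3 and 296.5 in XX. The sexes did not overlap and the mean was 18.9-fold higher in XX (log2 difference 4.87, SE 0.79, adjusted p = 0.00304). Cyp2f2 measured 1.64, 5.07, 16.3 and 33.4 RPKM in XY and 100.2, 202.9, 221.4 and 259.8 in XX, in the same order of the XY libraries as Akr1d1 (log2 difference 4.24, SE 0.73, adjusted p = 0.00419). Ugt1a1, which conjugates bilirubin with glucuronic acid, was low in both sexes at 0.0253 to 0.210 RPKM in XY and 0.435 to 3.52 in XX (log2 difference 1.56, SE 0.34, adjusted p = 0.0117). These 3 calls held after GC correction and without any 1 library.

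Srd5a2 went the other way. It measured 823.7, 753.7, 112.9 and 166.0 RPKM in XY and 31.6, 58.6, 61.15 and 57.75 in XX. XY replicates 1 and 2 stood far above XY replicates 3 and 4, and all 4 were above XX. The mean was 8.875-fold higher in XY (log2 difference -2.68, SE 0.65, adjusted p = 0.0188), and the call held after GC correction (0.0244) and without any 1 library (up to 0.0485). Its paralog Srd5a1 lay between 6.19 and 15.3 RPKM in XY and between 7.76 and 13.8 in XX (adjusted p = 0.493), and Akr1b7, which reduces aldehydes released by side-chain cleavage, between 1009 and 2003 RPKM in XY and between 380.3 and 2661 in XX (0.446). Srd5a3 was not called (0.0936) and was called higher after GC correction (0.0249). The other 8 members, among them Hsd17b4, Hsd17b11, Cbr1 and Cyp1b1, were not called.

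In the list for the pathway from cholesterol to corticosteroids, 2 of 23 tested members were higher in XX and 2 lower. Of all genes tested, 12.0% were called higher and 11.0% lower. The median log2 difference of the list was -0.01. Cyp11a1, the side-chain cleavage enzyme that starts steroid synthesis, measured 1127, 1431, 999.7 and 1136 RPKM in XY and 727.7, 885.4, 808.9 and 898.8 in XX. All XX libraries were below all XY libraries (log2 difference -0.49, SE 0.13, adjusted p = 0.0236), and the call was lost without XY replicate 1 or XX replicate 3 (up to 0.0600). Fdxr, the reductase that passes electrons to ferredoxin, measured 453.1, 496.8, 353.6 and 408.5 RPKM in XY and 212.7, 271.9, 279.6 and 278.9 in XX, again with no overlap (log2 difference -0.71, SE 0.13, adjusted p = 0.00603). Cyb5a, a cofactor of P450 reactions, was higher at 38.6 to 41.7 RPKM in XY and 45.8 to 52.1 in XX (log2 difference 0.28, adjusted p = 0.0220, up to 0.0699 without XY replicates 1 and 2 or XX replicates 2 and 3). Hsd17b7, an enzyme of cholesterol synthesis, overlapped at 0.939 to 3.795 RPKM in XY and 3.23 to 11.65 in XX (log2 difference 1.40, adjusted p = 0.0287, up to 0.0798 without XY replicates 1, 2 and 3 or XX replicates 2, 3 and 4). It is counted again below among the genes of cholesterol synthesis and uptake.

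The abundant steroidogenic transcripts overlapped and were not called. Hsd3b1, the 3-beta-hydroxysteroid dehydrogenase, lay between 5543 and 7042 RPKM in XY and between 5773 and 7230 in XX (adjusted p = 0.562). Cyp21a1, the 21-hydroxylase, lay between 2968 and 4124 RPKM in XY and between 2885 and 3730 in XX (0.501), and Cyp11b1, which makes corticosterone, between 1740 and 2240 RPKM in XY and between 1527 and 1934 in XX (0.331). Star, which brings cholesterol into mitochondria, lay between 2194 and 4175 RPKM in XY and between 1911 and 2806 in XX (0.1715). Cyp11b2, the aldosterone synthase, measured 571.1, 536.5, 768.9 and 1063 RPKM in XY and 390.4, 625.8, 325.1 and 440.6 in XX (0.0840). Nr5a1, which encodes steroidogenic factor 1, lay between 105.0 and 240.9 RPKM in XY and between 133.6 and 200.6 in XX (0.929). A p above the threshold does not show that levels were alike.

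None of 8 tested zona glomerulosa genes was called by limma (median -0.14), and 2 had an unadjusted p under 0.05. Of 12 genes of the zona fasciculata and the ACTH response (median -0.07), Creb1, a transcription factor activated by cAMP, was called higher (adjusted p = 0.0178, 0.245 after GC correction, and up to 0.0533 without XY replicate 1 or XX replicates 2 and 4). The ACTH receptor gene Mc2r lay between 139.2 and 205.9 RPKM in XY and between 152.7 and 197.8 in XX (0.879). Over all genes tested, 12.0% were called higher and 11.0% lower.

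Of 10 tested hormone receptor genes, 3 (Prlr, Nr3c1 and Thrb) were higher in XX and 1 (Gper1) lower. For all genes tested these shares were 12.0% and 11.0%. The list holds receptors for sex and pituitary hormones and also those for glucocorticoids (Nr3c1) and thyroid hormone (Thrb). Thrb is counted among the X-zone genes as well. The median log2 difference was 0.15 (from 0.08 without XY replicate 3 to 0.23 without XY replicate 1 with each library left out). Prlr, the prolactin receptor, measured 8.16, 7.78, 12.8 and 18.1 RPKM in XY and 19.1, 27.8, 24.2 and 26.0 in XX. The sexes did not overlap, although XY replicate 4 lay close to XX replicate 1 (log2 difference 1.05, SE 0.25, adjusted p = 0.0171, and up to 0.0538 without XX replicates 2 or 4). Nr3c1, the glucocorticoid receptor, was at 6.105 to 6.81 RPKM in XY and 7.305 to 8.44 in XX (log2 difference 0.27, adjusted p = 0.0316, 0.421 after GC correction, and up to 0.09915 without XY replicates 1, 2 and 3 or XX replicates 2, 3 and 4). Gper1, a membrane receptor for estrogen, measured 2.12, 2.02, 1.81 and 2.03 RPKM in XY and 0.770, 0.893, 1.24 and 1.19 in XX (log2 difference -0.57, SE 0.10, adjusted p = 0.00407), with every XX library below every XY library. Esr1, the estrogen receptor alpha gene, lay between 0.932 and 1.08 RPKM in XY and between 0.980 and 1.19 in XX (0.698). No higher call of the list was left without XX replicate 2 or XX replicate 4, and there were 4 without XX replicate 1.

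The 15 largest rises among called genes that reached a mean of 5 RPKM and did not overlap were Akr1c18, Akr1d1, Cyp2f2, Hamp, Pik3c2g, Fetub, Car8, Cst8, Acpp, Cd1d1, Smpdl3b, Scand1, Apof, Frzb and Man1a. All but Akr1c18 kept their call after GC correction and without any 1 library. Hamp, which encodes the iron hormone hepcidin, measured 0, 0, 0.275 and 0.0634 RPKM in XY and 11.8, 16.4, 13.6 and 12.5 in XX. It was at or near 0 in every XY library and even across XX (log2 difference 3.75, SE 0.12, adjusted p = 1.24e-07). Its close copy Hamp2 may share reads with it. Fetub, a secreted protease inhibitor of the fetuin family, measured 1.43, 1.87, 4.41 and 8.76 RPKM in XY and 19.6, 51.95, 45.4 and 54.3 in XX (log2 difference 3.22, SE 0.48, adjusted p = 0.00194). Cd1d1, which presents lipids to natural killer T cells, measured 25.1, 31.0, 58.6 and 80.2 RPKM in XY and 184.7, 288.3, 234.9 and 241.3 in XX (log2 difference 2.39, SE 0.34, adjusted p = 0.00160). In Fetub and Cd1d1, XY replicate 4 was the highest XY library and XX replicate 1 the lowest XX library.

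Car8, a carbonic anhydrase-related protein, had means of 2.885 ± 2.39 RPKM in XY and 22.8 ± 9.75 in XX (SD, n = 4 each), and Cst8, a cystatin, of 5.395 ± 1.88 and 42.85 ± 19.25. Acpp, the prostatic acid phosphatase, had means of 1.30 ± 1.46 and 11.3 ± 6.27 RPKM, and Smpdl3b, a sphingomyelinase-like phosphodiesterase, of 1.39 ± 1.21 and 9.77 ± 4.27. Their log2 differences lay between 2.2 and 2.70, with adjusted p from 0.001725 to 0.008475 (limma). Man1a, a Golgi mannosidase, measured 4.18, 3.63, 5.40 and 6.915 RPKM in XY and 14.6, 23.2, 23.2 and 23.1 in XX (log2 difference 1.88, SE 0.20, adjusted p = 3.24e-04). XX replicate 1 lay below the other 3 XX libraries, which were close together. Scand1, a SCAN domain protein, measured 1.43, 1.49, 0.705 and 0.377 RPKM in XY and 9.04, 10.2, 7.87 and 4.72 in XX (log2 difference 2.16, adjusted p = 5.44e-04). That direction did not hold at 6 weeks, when the means were 27.3 ± 17.3 RPKM in XY and 11.1 ± 1.39 in XX (log2 difference -1.02, adjusted p = 0.0583, a change of -3.20, adjusted p = 0.00423 by limma). At 12 weeks Scand1 was again higher in XX (2.24, adjusted p = 8.13e-04).

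The 15 largest falls by the same rule were Bc1, Srd5a2, Myo1a, Rpl23a, Snord104, Ndufa4l2, Tpm2, Npy, Emp3, Tmsb10, Slc39a7, Rpl35, Prss35, Mir6993 and Rps29. All but Myo1a kept their call after GC correction and without any 1 library. Bc1, a short RNA polymerase III transcript known from neurons, measured 167.3, 237.1, 94.4 and 91.9 RPKM in XY and 3.695, 3.45, 4.11 and 2.97 in XX. The mean was 41.5-fold higher in XY (log2 difference -4.92, SE 0.29, adjusted p = 5.75e-06), and since related repeats exist in the genome its reads are uncertain. Prss35, a serine protease-like protein, measured 169.3, 202.0, 190.2 and 190.1 RPKM in XY and 71.0, 88.5, 73.6 and 92.1 in XX. The spread within each sex was small and the mean was 2.31-fold higher in XY (log2 difference -1.20, SE 0.11, adjusted p = 8.74e-05). Ndufa4l2, a hypoxia-inducible relative of a respiratory chain subunit, lay between 22.2 and 27.3 RPKM in XY and between 7.45 and 11.5 in XX (log2 difference -1.40, SE 0.13, adjusted p = 1.13e-04).

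Tpm2, a tropomyosin, had means of 35.6 ± 10.4 RPKM in XY and 12.5 ± 1.11 in XX, Tmsb10, which binds actin, of 35.6 ± 7.01 and 14.7 ± 3.55, and Emp3, a membrane protein, of 209.0 ± 58.5 and 84.0 ± 4.41 (SD, n = 4 each). Slc39a7, a zinc transporter, lay between 7.56 and 8.56 RPKM in XY and between 2.53 and 3.785 in XX (log2 difference -1.21, SE 0.11, adjusted p = 9.59e-05). Myo1a, an unconventional myosin, measured 11.2, 14.05, 1.72 and 2.93 RPKM in XY and 0.236, 0.854, 1.57 and 1.26 in XX. Its XY libraries were split as those of Srd5a2 were, with replicates 1 and 2 high, and its call (adjusted p = 0.04555) was lost after GC correction (0.0676) and without XY replicates 1 and 2 or XX replicates 1, 2, 3 and 4 (up to 0.113). Snord104 and Mir6993 are short genes within longer transcripts, so their reads, 12.6 to 22.25 RPKM in XY and 3.57 to 9.39 in XX and 16.05 to 26.05 RPKM in XY and 5.81 to 11.1 in XX, are uncertain.

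Of 15 tested chromaffin cell genes, 11 were called lower in XX and none higher, against 11.0% and 12.0% of all genes tested. For all 15 chromaffin genes the difference lay below 0, and the median was -0.71. Their summed level ran from 2711 to 3543 RPKM in XY and from 1333 to 1659 in XX. Chga, which encodes chromogranin A of the secretory granule, measured 630.1, 719.7, 626.9 and 628.4 RPKM in XY and 363.9, 334.1, 333.8 and 348.0 in XX. The sexes were far apart relative to the spread within each (log2 difference -0.91, SE 0.08, adjusted p = 6.67e-05). Chgb, chromogranin B, lay between 981.2 and 1470 RPKM in XY and between 491.2 and 545.3 in XX (log2 difference -1.12, adjusted p = 4.93e-04), and Dbh, which makes noradrenaline from dopamine, had means of 115.0 ± 23.5 and 55.2 ± 1.765 (-1.03, adjusted p = 7.04e-04). Npy, a peptide stored with catecholamines, measured 273.9, 364.8, 285.8 and 243.3 RPKM in XY and 204.0, 96.2, 79.2 and 117.0 in XX (log2 difference -1.31, SE 0.27, adjusted p = 0.00993). XX replicate 1 was the highest XX library for Npy and still below all XY libraries.

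Th, the rate-limiting enzyme of catecholamine synthesis, measured 127.4, 245.2, 159.0 and 145.9 RPKM in XY and 108.0, 67.7, 73.0 and 84.4 in XX, with no overlap (log2 difference -0.99, SE 0.22, adjusted p = 0.0124). The other called members included Ddc, Scg2, Hand2, Slc18a1 and Gata3. Pnmt, which makes adrenaline, measured 64.7, 140.8, 155.0 and 182.4 RPKM in XY and 156.8, 143.2, 64.6 and 99.85 in XX, overlapping (log2 difference -0.21, SE 0.37, adjusted p = 0.734). Penk, Slc18a2 and Phox2a were not called either (adjusted p = 0.0614, 0.275 and 0.0820). After GC correction 12 members were called lower, and 11 or 12 with each library left out in turn. The share of medulla in each gland is not given in the sources used here, and its part in these differences was not tested.

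**Figure D3:**
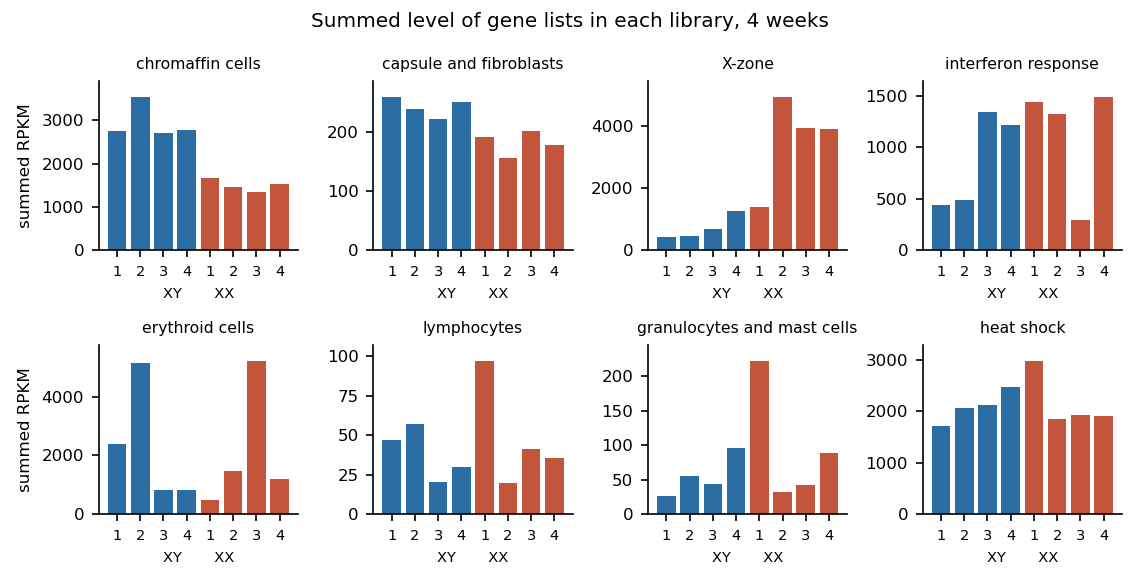
Summed level in RPKM (bars from 0) of the tested members of 8 gene lists in each of the 4 XY and 4 XX control libraries at 4 weeks. Chromaffin sums are 2711 to 3543 in XY and 1333 to 1659 in XX, and interferon, erythroid, lymphocyte, granulocyte and heat shock sums overlap between the sexes.

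Of 15 tested capsule and fibroblast genes, 3 (Col1a2, Col3a1 and Mfap5) were lower in XX, where 11.0% of all genes tested were called lower. All 15 differences of the list lay below 0 (median -0.29). Col1a2, a chain of type I collagen, measured 31.7, 30.3, 24.45 and 29.7 RPKM in XY and 15.7, 13.95, 20.3 and 17.85 in XX, with no overlap (log2 difference -0.75, SE 0.13, adjusted p = 0.00371). Mfap5, a microfibril protein, was at 2.80 to 3.14 RPKM in XY and 1.70 to 2.03 in XX (adjusted p = 0.00195). Col3a1 overlapped (adjusted p = 0.0221, up to 0.0654 without XY replicates 1 and 2 or XX replicate 2). The summed level was 221.6 to 258.8 RPKM in XY and 155.1 to 201.6 in XX. Lower calls numbered 7 without XX replicate 3, 5 without XY replicate 3 and 2 without XY replicate 1, XY replicate 2 or XX replicate 2. Of 11 endothelial genes Egfl7 was lower (median -0.27, adjusted p = 0.00972, 0.0758 after GC correction), with 3 lower calls without XY replicate 4 or XX replicate 1.

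In Wnt and hedgehog signalling, 2 of 24 tested members were higher in XX and 3 lower (median -0.11). These counts lie near the shares of all genes tested, 12.0% higher and 11.0% lower. Frzb, a secreted antagonist of Wnt ligands, measured 22.7, 34.9, 29.4 and 58.1 RPKM in XY and 110.1, 159.4, 145.6 and 150.4 in XX. The groups were apart, with means of 36.3 ± 15.4 and 141.4 ± 21.6 RPKM (SD, n = 4 each; log2 difference 2.00, SE 0.26, adjusted p = 9.03e-04). Lgr4, an R-spondin receptor, was higher at 19.9 to 30.65 RPKM in XY and 34.3 to 50.5 in XX (log2 difference 0.71, adjusted p = 0.02215, up to 0.06505 without XY replicates 1 and 2 or XX replicates 2 and 4). The related receptor Lgr5 was lower at 3.24 to 4.69 RPKM in XY and 2.52 to 2.71 in XX (-0.38, adjusted p = 0.0338, up to 0.0886 without XY replicate 1 or XX replicates 2, 3 and 4). Axin2, a target and inhibitor of canonical Wnt signalling, measured 10.2, 8.45, 9.10 and 8.62 RPKM in XY and 6.14, 6.05, 7.39 and 6.715 in XX (log2 difference -0.41, SE 0.09, adjusted p = 0.0114, and 0.0597 after GC correction). Every XX library of Axin2 was below every XY library. Tcf7, a transcription factor of the pathway, was lower (-0.32, adjusted p = 0.0344, 0.166 after GC correction, and up to 0.101 without any library but XX replicate 1). Ctnnb1, Wnt4, Rspo3, Notum, Rnf43 and Lef1 were not called.

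Of 23 tested genes of cholesterol synthesis and uptake, 4 (Hmgcs1, Fdft1, Fdps and Hsd17b7) were higher in XX and none lower, where 12.0% and 11.0% of all genes tested were called higher and lower. The median was 0.41, and ran from 0.18 without XX replicate 3 to 0.56 without XX replicate 1 with each library left out. Hmgcs1, the synthase before the rate-limiting step, measured 17.3, 18.8, 17.7 and 25.2 RPKM in XY and 27.2, 35.2, 79.8 and 47.2 in XX, with XX replicate 3 the highest (log2 difference 1.12, SE 0.30, adjusted p = 0.0270, 0.0551 after GC correction, and up to 0.0738 without XY replicates 1, 2 and 3 or XX replicate 4). Fdft1, the squalene synthase, was at 7.2 to 9.70 RPKM in XY and 10.2 to 14.8 in XX (0.51, adjusted p = 0.0242, up to 0.06815 without XY replicates 1, 2 and 4 or XX replicates 2 and 4). Fdps, the farnesyl diphosphate synthase, overlapped (adjusted p = 0.0448, up to 0.1105 without XY replicates 1, 2 and 3 or XX replicates 2, 3 and 4). Calls numbered 8 without XX replicate 1, 5 without XY replicate 4, 2 without XX replicate 3, 1 without XY replicate 3 or XX replicate 2, and 0 without XY replicate 1, XY replicate 2 or XX replicate 4.

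Of 13 tested imprinted growth genes (median -0.13), Meg3, a maternally expressed long RNA, was lower in XX at 73.8 to 88.65 RPKM in XY and 36.0 to 55.3 in XX, with no overlap (log2 difference -0.84, SE 0.13, adjusted p = 0.00226). Its paternally expressed neighbour Dlk1 was lower at 39.0 to 44.4 RPKM in XY and 28.2 to 35.5 in XX (adjusted p = 0.0161, 0.109 after GC correction), and Plagl1, a zinc finger protein, higher at 1.41 to 1.84 RPKM in XY and 2.14 to 2.76 in XX (adjusted p = 0.0109). Of 15 cell cycle inhibitors and senescence genes (median 0.05), Cdkn1b, which encodes p27, was higher at 8.47 to 9.55 RPKM in XY and 10.8 to 21.5 in XX (log2 difference 0.76, adjusted p = 0.0151), as was Ccng1, a p53 target, at 22.0 to 26.95 RPKM in XY and 33.0 to 35.4 in XX (0.51, adjusted p = 0.00262). None of 28 proliferation genes was called by limma (median 0.19, 4 with an unadjusted p under 0.05), with Mki67 between 3.2 and 6.85 RPKM in XY and between 5.25 and 11.3 in XX (0.177). Of 19 circadian clock genes (median 0.02), Rora was higher (adjusted p = 0.00246), as was Clock (adjusted p = 0.03105, 0.612 after GC correction, and up to 0.0951 without any library but XX replicate 1). Calls numbered 1 higher and 2 lower of 13 imprinted genes, and 2 higher each of 15 senescence and 19 clock genes. Over all genes tested, 12.0% were called higher and 11.0% lower.

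Immune and stress genes varied between libraries of the same sex. By limma none of 15 macrophage (median -0.13), 7 MHC class II (-0.06), 12 lymphocyte (0.32), 21 interferon-response (0.65) and 12 heat shock genes (0.04) was called, with an unadjusted p under 0.05 for 2 heat shock genes and 0 of the others. These medians moved with single libraries. Left out in turn, they gave medians from -0.12 without XX replicate 1 to 0.5 without XX replicate 2 for lymphocyte genes, from 0.34 without XY replicate 1 to 1.16 without XX replicate 3 for interferon genes, from -0.5 without XX replicate 1 to 0.22 without XX replicate 3 for MHC class II genes, from -0.28 without XX replicate 1 to 0.01 without XX replicate 3 for macrophage genes and from -0.16 without XX replicate 1 to 0.22 without XX replicate 2 for heat shock genes. The summed interferon level was 437.6, 487.2, 1343 and 1222 RPKM in XY and 1444, 1328, 290.6 and 1492 in XX. Both sexes held low and high libraries, and 3 interferon genes were called higher without XX replicate 3, the lowest. XX replicate 1 had the highest sums of lymphocyte genes (97.05 RPKM against at most 57.2), granulocyte and mast cell genes (222.3 against at most 96.3) and MHC class II genes (1019 against at most 646.8). Of 10 granulocyte and mast cell genes (median 0.52), Kit was higher (adjusted p = 0.0196, up to 0.06325 without XY replicate 2 or XX replicates 3 and 4). Over all genes tested, 12.0% were called higher. Erythroid sums ran from 830.1 to 5143 RPKM in XY and from 483.6 to 5226 in XX, with none of 6 genes called (median 0.01, from -0.62 without XX replicate 3 to 0.53 without XX replicate 1) and 0 at an unadjusted p under 0.05.

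Of 17 phagocytosis genes (median -0.14), Mfge8, a bridge between apoptotic cells and phagocytes, was lower in XX at 34.2 to 39.9 RPKM in XY and 27.3 to 28.05 in XX (log2 difference -0.41, SE 0.07, adjusted p = 0.00378), as was Cx3cl1, a chemokine (adjusted p = 0.0232, 0.268 after GC correction, and up to 0.0745 without XY replicates 2 and 3 or XX replicates 2, 3 and 4). Of the 17 genes 2 were thus called lower and 0 higher, near the 11.0% of all genes tested that were called lower. The phagocytosis list was taken from the study, which used samples of this series, so its direction is not an independent result. None of 12 glucocorticoid targets (-0.17), 10 adipocyte (-0.08), 6 brown adipocyte (0.15) and 6 Schwann cell and nerve genes (-0.19) was called by limma, each with its median in parentheses, and 2 of them had an unadjusted p under 0.05. The median of the glucocorticoid targets ran from -0.53 without XX replicate 1 to 0.06 without XX replicate 3 with each library left out. Few markers of neighbouring organs passed the filter. There were 1 for kidney, 2 for liver, 2 for skeletal muscle, 4 for ovary and testis and 1 for pancreas, and of these Cela1, a pancreatic elastase gene, was called, lower at 23.6 to 40.1 RPKM in XY and 14.3 to 20.4 in XX (adjusted p = 0.0354, 0.0740 after GC correction, and up to 0.0903 without XY replicates 1 and 2 or XX replicates 1, 2, 3 and 4).

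Of 24 immediate early genes, which respond to stimuli such as handling, Jund was called higher and Jun lower, 22 differences lay below 0, and the median was -0.54. It was -0.32 without XX replicate 2 and -0.23 without XX replicate 3, and in other libraries 0.16 at 6 weeks, -0.25 at 12 weeks and 0.4 in Znrf3 cKO adrenals at 4 weeks. Jun measured 54.85, 61.9, 51.5 and 55.3 RPKM in XY and 48.3, 24.1, 24.2 and 30.55 in XX, with XX replicate 1 close to XY (adjusted p = 0.0187, 0.0549 after GC correction, and up to 0.0558 without XY replicate 2 or XX replicates 2 and 4). Jund measured 10.2, 11.2, 4.98 and 4.49 RPKM in XY and 17.3, 14.4, 17.7 and 15.2 in XX (adjusted p = 0.0208, up to 0.0537 without XX replicates 3 and 4), and was called lower in XX at 6 weeks (-0.78, adjusted p = 0.00138). Nr4a1, an orphan nuclear receptor induced by ACTH, measured 230.3, 389.8, 279.6 and 159.7 RPKM in XY and 238.3, 59.2, 28.4 and 138.6 in XX (0.105). The lowest XY library of Nr4a1 lay above XX replicates 2, 3 and 4 and below XX replicate 1. Lower calls of the list numbered 7 without XX replicate 1. They numbered 0 without XY replicate 2, XX replicate 2 or XX replicate 4, and 0 after GC correction. Over all genes tested, 12.0% were called higher and 11.0% lower.

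**Figure D4:**
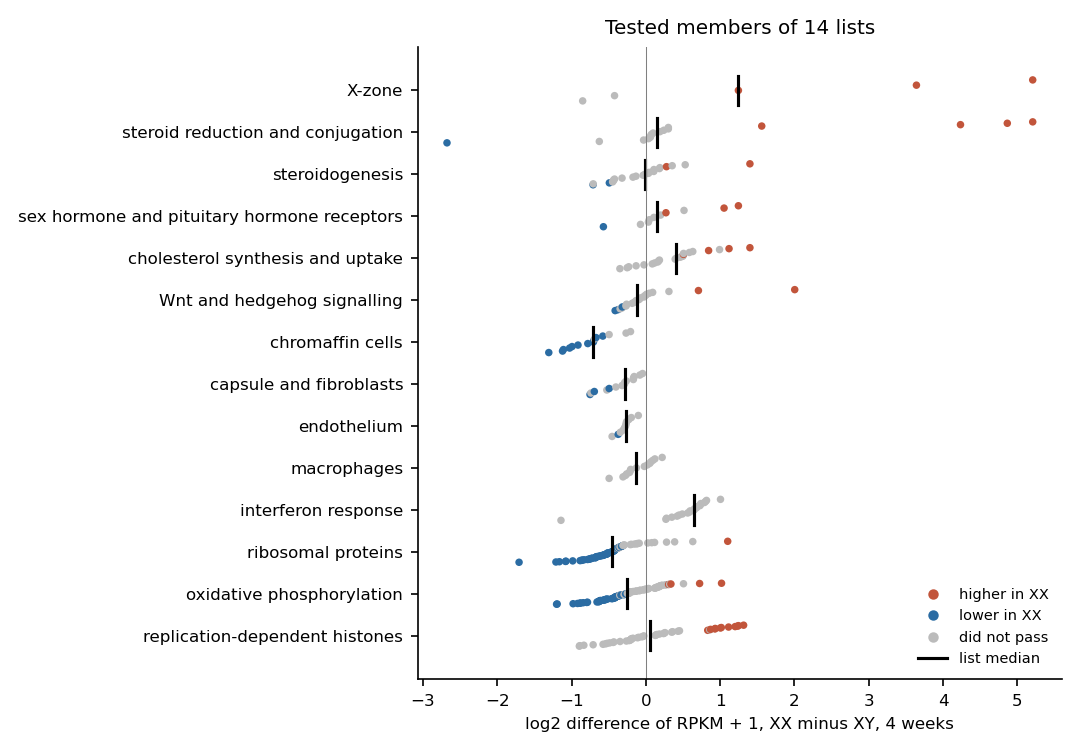
Log2 difference (XX minus XY, 4 weeks) of every tested member of 14 lists. Each point is a gene, red where it was called higher in XX, blue where called lower and grey where not called, and black bars are medians, from -0.71 for chromaffin genes to 1.25 for the 5 X-zone genes.

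Of 77 tested genes named for ribosomal proteins, 56 were lower in XX and 1 higher, against 11.0% and 12.0% of all genes tested. The median of the 77 was -0.45. After GC correction 45 were lower and 2 higher, and 39 (without XX replicate 4) to 67 (without XX replicate 1) were lower with each library left out in turn. Rpl41 lay between 313.4 and 375.4 RPKM in XY and between 171.2 and 188.6 in XX (log2 difference -0.98, SE 0.08, adjusted p = 4.99e-05), and Rpl23a between 72.65 and 105.8 RPKM in XY and between 24.8 and 26.5 in XX (-1.71, SE 0.12, adjusted p = 2.14e-05). Rps2 was the higher member, at 22.7 to 28.8 RPKM in XY and 46.2 to 62.2 in XX (1.1, SE 0.11, adjusted p = 2.10e-04). Ribosomal protein genes share reads with processed pseudogenes, so their counts are uncertain. Of 3315 processed pseudogenes tested, 610 were higher and 802 lower (42.6% called), against 18.9% of 13060 protein-coding genes. Of 85 symbols of oxidative phosphorylation, pseudogenes included, 40 were lower and 4 higher (median -0.25), against 11.0% and 12.0% of all genes tested. Ndufa13, a subunit of complex I, lay between 79.2 and 96.1 RPKM in XY and between 43.2 and 50.6 in XX (log2 difference -0.88, adjusted p = 1.54e-04). Cox8a, a subunit of complex IV, had means of 152.2 ± 42.1 and 244.9 ± 19.45 RPKM and was higher in XX (0.72, adjusted p = 0.0277, up to 0.0701 without XY replicate 3 or XX replicates 2, 3 and 4).

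Of 46 replication-dependent histone genes, 11 were higher in XX and none lower, against 12.0% and 11.0% of all genes tested. The median of the list was 0.05 (from -0.2 without XY replicate 4 to 0.34 without XX replicate 1 with each library left out). The 11 called were 10 Hist1h2a genes, near-identical to each other, and Hist1h1e. Reads of the Hist1h2a genes cannot be assigned with certainty. Hist1h2ah measured 0.418, 0.418, 0.139 and 0.0642 RPKM in XY and 1.49, 1.49, 2.53 and 2.125 in XX, with no overlap (log2 difference 1.20, SE 0.15, adjusted p = 8.06e-04). Most histone messages lack a poly(A) tail, so libraries made from poly(A) RNA hold only a part of them.

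The calls at 4 weeks were then read in libraries that the comparison had not used. Control adrenals at 6 weeks (8 libraries) gave 8444 calls of 18991 genes (44.5%), those at 12 weeks (9 libraries) 7323 of 18816 (38.9%), and Znrf3 cKO adrenals at 4 weeks (8 libraries) 5053 of 18463 (27.4%). Of the 4363 calls, 4289 genes were tested at 6 weeks, 93.8% of these had the same direction, and 3072 were called in it, 70.4% of the 4-week and 36.4% of the 6-week calls. At 12 weeks 97.7% of 4258 had the same direction and 3239 were called (74.2% and 44.2%). In Znrf3 cKO adrenals 88.8% of 4176 had the same direction and 2135 were called (48.9% and 42.3%). Calls in the opposite direction numbered 51, 5 and 14. In these comparisons too the library numbers of the sexes do not interleave, so a batch that goes with sex could be shared by all of them. Such a batch and sex cannot be told apart here either. The share of all tested genes with the same direction is not given here. The gradient with GC content is common to these comparisons. With the GC correction, 62.9%, 75.2% and 52.1% of the 4-week calls were called in the same direction.

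Whether the sex difference changed with age was tested as an interaction, which shares the 4-week libraries with the comparison above. From 4 to 6 weeks it was called for 681 of 19549 genes (3.48%), and from 4 to 12 weeks for 66 of 19517 (0.338%). Frzb averaged 7.2 ± 3.64 RPKM in XY and 174.8 ± 53.2 in XX at 6 weeks (SD, n = 4 each), and 0.695 ± 0.134 (n = 5) and 174.0 ± 28.6 (n = 4) at 12 weeks. Its XY level was thus lower at each later age, and the log2 difference was wider by 2.51 (SE 0.51, adjusted p = 0.01615) and 4.68 (SE 0.29, adjusted p = 5.12e-07). Akr1d1 averaged 0.0308 RPKM in XY and 649.8 in XX at 6 weeks and 0.152 and 1020 at 12 weeks (wider by 4.28 and 4.93, adjusted p = 0.0201 and 0.0122). Serpinb1a, an inhibitor of neutrophil proteases, overlapped at 4 weeks at 26.7 to 55.2 RPKM in XY and 54.5 to 142.9 in XX (adjusted p = 0.01655, 0.0522 without XX replicate 4). It averaged 6.95 and 142.3 RPKM at 6 weeks and 4.31 and 107.0 at 12 weeks (wider by 2.95 and 3.13, adjusted p = 0.00582 and 0.0113).

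Akr1c18 had XY means of 1.16 and 1.575 RPKM at 6 and 12 weeks and XX means of 1452 and 1394, with log2 differences of 8.96 (SE 0.92) and 9.13 (SE 0.56). Its change with age was not called (adjusted p = 0.347 and 0.465), nor was that of Cyp2f2 (0.0956 and 0.2295). Adh1, an alcohol dehydrogenase that also oxidises retinol, overlapped at 4 weeks at 658.0 to 1391 RPKM in XY and 1172 to 1345 in XX (0.2935). Later it had XY means of 343.4 and 243.7 RPKM and XX means of 1535 and 1691 (wider by 1.88 and 2.63, adjusted p = 0.0116 and 0.0282). Cd1d1 averaged 14.1 and 258.4 RPKM at 6 weeks (wider by 1.67, adjusted p = 0.0456, and 0.05295 after GC correction), and Vnn3, a pantetheinase, 2.56 and 38.7 (wider by 2.25, adjusted p = 0.0442).

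Other genes were higher in XY at the later ages. Susd3, a membrane protein, measured 7.04, 4.61, 2.63 and 1.95 RPKM in XY and 1.67, 0.3815, 0.370 and 0.333 in XX at 4 weeks, with no overlap (log2 difference -1.54, SE 0.35, adjusted p = 0.0138). It averaged 39.9 ± 4.66 and 0.475 ± 0.127 RPKM at 6 weeks (SD, n = 4 each) and 24.65 ± 8.5 (n = 5) and 0.473 ± 0.0729 (n = 4) at 12 weeks, so the difference moved by -3.25 and -2.53 (adjusted p = 8.19e-04 and 0.0205). Kcnk1, a potassium channel, lay between 2.14 and 4.53 RPKM in XY and between 1.53 and 2.07 in XX at 4 weeks, not called (adjusted p = 0.0541), and averaged 16.4 and 2.34 RPKM at 6 weeks and 12.4 and 1.96 at 12 weeks (moved by -1.77 and -1.59, adjusted p = 0.00204 and 0.0168).

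Aldh1a1, a retinal dehydrogenase, was called in opposite directions at 4 and 12 weeks. It was higher in XX at 4 weeks (1.42 to 5.085 RPKM in XY and 4.64 to 10.05 in XX, overlapping, log2 difference 1.42, adjusted p = 0.0152) and lower at 12 weeks, with means of 36.5 ± 14.85 RPKM in XY (SD, n = 5) and 6.42 ± 2.68 in XX (n = 4; log2 difference -2.30, adjusted p = 5.08e-04). The change was -3.72 (adjusted p = 0.00372 by limma). Cyp11b1, not called at 4 weeks, had means of 1462 and 2321 RPKM at 6 weeks (log2 difference 0.67, adjusted p = 0.00192), a change of 0.82 (adjusted p = 0.0137).

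**Figure D5:**
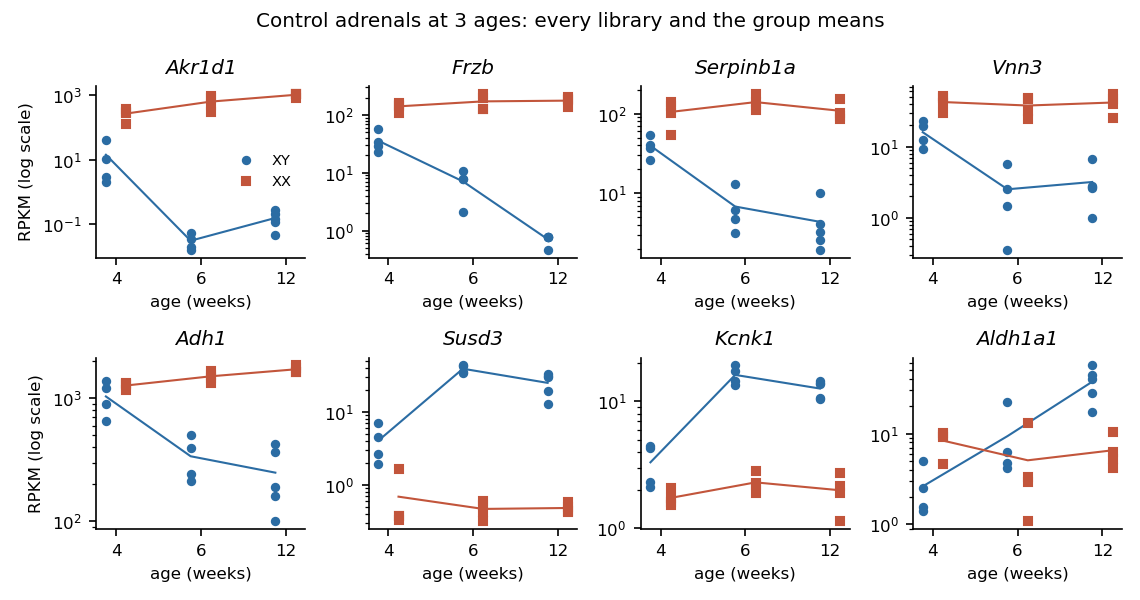
Level of 8 genes in RPKM (log axis, rescaled over all control libraries) in every XY (blue circles) and XX (red squares) control library at 4, 6 and 12 weeks, with lines through the group means. Frzb and Akr1d1 are lower in XY at 6 and 12 weeks than at 4, and Susd3 and Kcnk1 are higher.

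The share of all genes tested that was called differed between comparisons, so list counts are to be read beside it. It was 23.1% in controls at 4 weeks, 44.5% at 6 weeks, 38.9% at 12 weeks and 27.4% in Znrf3 cKO adrenals. Chromaffin genes gave 14 lower calls of 15 at 6 weeks and 13 at 12 weeks (medians -1.49 and -1.15), and 2 of 14 in Znrf3 cKO adrenals at 4 weeks (-0.43). X-zone genes gave 3 higher and 2 lower calls of 5 at 6 weeks and 3 and 1 at 12 weeks. In Znrf3 cKO adrenals at 4 weeks only 3 of the 5 passed the filter, with 1 higher and 1 lower (median 0.34). Ribosomal protein genes gave 45 and 43 lower and 2 and 1 higher calls of 77 at 6 and 12 weeks, and 8 lower and 9 higher in Znrf3 cKO adrenals. The split of calls of some other lists was not the same in the other libraries. Replication-dependent histone genes, with 11 higher and 0 lower calls in controls at 4 weeks, gave 0 higher and 37 lower of 57 at 6 weeks, 10 higher and 14 lower of 50 at 12 weeks and 13 and 1 of 42 in Znrf3 cKO adrenals, and the interaction from 4 to 6 weeks was called for 12 of them, all towards XY. Oxidative phosphorylation symbols, 4 higher and 40 lower of 85 in controls at 4 weeks, gave 15 higher and 12 lower at 6 weeks, 6 higher and 36 lower at 12 weeks and 17 and 8 in Znrf3 cKO adrenals. Cholesterol synthesis and uptake genes, 4 higher and 0 lower of 23 in controls at 4 weeks, gave 9 higher and 1 lower at 6 weeks and 9 and 0 at 12 weeks. In Znrf3 cKO adrenals they gave 2 higher and 3 lower (median -0.08). Whether the genotypes differ was not tested. Srd5a2 averaged 691.8 RPKM in XY and 75.0 in XX at 6 weeks, 675.0 and 92.2 at 12 weeks, and 538.8 and 96.2 in Znrf3 cKO adrenals. Akr1c18 averaged 2.72 and 23.1 RPKM in Znrf3 cKO adrenals (log2 difference 2.96, SE 0.61, adjusted p = 0.00876), Cyp2f2 0.572 and 152.5, Frzb 35.6 and 144.4, and Bc1 166.2 and 4.31.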

How the data were processed

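Total RNA of whole mouse adrenals was sequenced as poly(A) libraries (TruSeq Stranded mRNA, 300 ng of RNA, single reads of 50 bases). The authors deposited 1 table of RPKM values for 54838 genes in 73 libraries, made with cutadapt 3.2, FastQC 0.11.7, HISAT2 2.2.1 on mm10, SummarizeOverlaps and DESeq2 1.34.0, per the paper's methods and the submitters' processing notes. For base calling the notes give bcl2fastq 2.17.1.14 and the paper's methods another version of it. The deposited RPKM were scaled within each sex and age, so XX and XY were rescaled jointly here by the median of ratios over autosomal genes above 0 in every library compared. Read totals were recovered from the steps of low RPKM values, of which 98.4 to 98.76% came out whole within 0.02 of a read. Depth limits genes at low levels, and intervals between libraries cover only the spread of these 4 and 4.

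Groups came from the sex, genotype and age in the labels. Genes averaging 0.5 RPKM or more in either group were tested on log2(RPKM + 1) with limma 3.58.1 (R 4.3.3) and a trend, with Benjamini-Hochberg adjustment and a threshold of 0.05. The scripts were tested on simulated data. Genes were named by rule: the 15 largest rises and 15 largest falls among called, separated genes whose higher group averaged 5 RPKM or more (Gm and Rik names and pseudogenes left out), up to 6 called members per list and direction, any member of the steroid, X-zone and hormone receptor lists and up to 5 per age test and direction. Genes given outside this rule, such as Th, Pnmt, Nr4a1 and Mki67, were chosen after their values were seen. The members and the 36 lists were chosen with earlier results of these data known. Alternatives covered the pseudocount, filters, scalings, weights, a fold limit, transcript length, GC content, protein-coding genes only, 1 fit over all controls, and leaving out each library; those on GC content and protein-coding genes were chosen after seeing the data. Genes of the sex chromosomes were left out of the tests. A few list members are not reported here by name. Figures were drawn with matplotlib 3.10.9 (Python 3.11.15).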

Additional observations from a re-analysis of the deposited data

Results flagged for a closer look

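XX replicate 1 lay far from the other 3 XX control libraries for 11 named genes, by Dixon's test of the gap against the range. It was below the others, in RPKM, for Man1a (14.64 against 23.09 to 23.22), Srd5a2 (31.63 against 57.75 to 61.15), Fdxr (212.7 against 271.9 to 279.6), Hsd3b1 (5773 against 7017 to 7230), Cbr2 (2.6 against 4.287 to 4.626) and Ghr (6.179 against 7.555 to 7.687). It was above them for Rpl35 (56.99 against 42.64 to 44.24), Rps29 (218.1 against 159.1 to 168.7), Mrap (235.4 against 144.2 to 152.7), Hsd11b1 (14.6 against 8.314 to 8.839) and Cyp7b1 (2.664 against 1.417 to 1.499). Rpl23a stood out in XX replicate 2 (24.76 RPKM against 26.35 to 26.51). Groups of 4 libraries were examined in 150 cases at the 95% level, at which chance alone marks about 1 in 20 groups.

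The sex difference changed with age, by a test of the interaction (limma, adjusted p under 0.05), for the following named genes. The 2 interaction tests share the 4-week libraries and are not independent of each other. From 4 to 6 weeks the log2 difference (XX minus XY) moved towards XX for Akr1d1 (4.28), Cd1d1 (1.67), Frzb (2.51), Cyp11b1 (0.82), Lipe (0.73), Mfge8 (0.43), Uqcrh-ps1 (0.64), Serpinb1a (2.95), Cidea (2.65), Vnn3 (2.25) and Adh1 (1.88). It moved towards XY for Scand1 (-3.20), Tcf7 (-0.56), Dlk1 (-1.37), Jund (-1.86), Rps2 (-1.59), Hist1h2ah (-1.65), Hist1h2ap (-1.53), Hist1h2aj (-1.61), Hist1h2ao (-1.03), Hist1h2ae (-1.24), Hist1h2ak (-0.91), Cox8a (-0.97), Susd3 (-3.25), Plin5 (-2.90), Acan (-1.96), Slc25a30 (-1.87) and Kcnk1 (-1.77). The 6 Hist1h2a genes among these share near-identical sequence. Cidea is a member of the brown adipocyte list. At 6 weeks 4 of 5 tested brown adipocyte genes (median 1.21) and 6 of 10 adipocyte genes (median 1.34) were called higher in XX. Over all genes tested at 6 weeks, 4283 of 18991 were called higher. None of either list was called at 4 or 12 weeks. Whether the glands at 6 weeks differed in attached fat was not tested.

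From 4 to 12 weeks it moved towards XX for Akr1d1 (4.93), Frzb (4.68), Mc2r (0.79), Serpinb1a (3.13), Obp2a (4.48) and Adh1 (2.63), and towards XY for Susd3 (-2.53), Aldh1a1 (-3.72), Kcnk1 (-1.59), Cd300ld3 (-1.19) and Cd300ld4 (-1.18). The causes were not tested.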

How the results depend on the processing

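No paired analysis was possible because the labels carry no replicate numbers. At 4 weeks the main count of 4363 calls was 828 with a log2 difference of at least 1 and 2281 among protein-coding genes, and ran from 2871 (without XX replicate 4) to 5285 with each library left out. At 6 weeks (8444) it was 1249 with the fold limit and 6852 to 8524 with each library left out. At 12 weeks (7323) these were 1224 and 5833 to 8490. In Znrf3 cKO adrenals (5053) they were 842 and 3281 (without XY replicate 1) to 6195, with 2849 among protein-coding genes. For the change from 4 to 6 weeks (681) the count was 425 with no filter, 172 with the fold limit, 370 among protein-coding genes and 367 to 852 with each library left out, and at most 453 without XY replicates 3 or 4 or XX replicates 2, 3 or 4 at 4 weeks or XY replicates 1 or 2 or XX replicate 3 at 6 weeks. For the change from 4 to 12 weeks (66) it was 35 with no filter and 26 to 112, with 112 without XY replicate 4 at 12 weeks and at most 43 without XY replicates 3 or 4 or XX replicate 4 at 4 weeks or XY replicates 2 or 3 or XX replicates 1, 2 or 3 at 12 weeks. The fold limit and the protein-coding set admit fewer genes by construction; the cause was not tested for the others. No named gene that was called changed direction under an alternative, and of all 4-week calls 1 was called in the opposite direction after the GC correction.

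Scaling moved the split of higher and lower calls. At 4 weeks it was 2280 and 2083, and 2170 and 2229 with the deposited scaling, so that the larger side turned. At 6 weeks it was 4283 and 4161, and 3521 and 5206 with the deposited scaling. At 12 weeks it was 4037 and 3286, and 2841 and 4892. In Znrf3 cKO adrenals it was 2948 and 2105, and 2190 and 2941 with a common sum. For the change to 12 weeks it was 37 and 29, then 24 and 41 (deposited) and 21 and 28 (common sum). Of 94 called genes among the 139 named at 4 weeks, 64 kept their call under every alternative but the fold limit, and the GC correction removed 14. The libraries, 4 per sex with 1 apart and no known batch, limit all of this.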
